A study of Mus musculus with 6 samples.

Results

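Collagen IV is the network-forming collagen of basement membranes, and its 6 chains (Col4a1 to Col4a6) were measured here with Col4a3bp, the gene of a ceramide transfer protein also known as the Goodpasture antigen-binding protein. The 7 members were chosen by gene symbol, not by measured values. They are 7 of the 36889 gene identifiers in the deposited tables and 7 of the 19742 genes that had enough counts to be tested, so no member was lost to the filter on low counts.

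Polyadenylated RNA labelled as coming from podocytes was sequenced in 3 libraries labelled wild type (WT1 to WT3) and 3 labelled CD2BP2 knockout (KO1 to KO3), all on a C57BL/6 background. CD2BP2 binds proline-rich partners through its GYF domain and belongs to the U5 particle of the spliceosome. The allele was floxed, with the 3′ loxP site placed behind exon 3 of 7 and the neomycin cassette removed by crossing to an FLPO deleter strain. The labels name no Cre driver for the podocyte libraries, no age for those animals and no separate animal per library, so p-values measure the spread between these libraries, which may be technical. Their treatment text instead describes bone marrow macrophages from CD2BP2flox/flox MxCre+ mice aged 6 to 10 weeks and their littermates, all given 300 μg poly(I:C). The deposited values were read counts per exonic part, a stretch of exon bounded by annotated exon edges, with 186022084 to 255554573 part counts per library. Cd2bp2 itself stood at 61.0, 61.8 and 60.8 CPM, which are counts scaled to library size, in WT1, WT2 and WT3 and at 48.4, 47.3 and 51.0 CPM in KO1, KO2 and KO3. Its log2 fold change of KO over WT was -0.32 ± 0.05 (edgeR adjusted p = 0.0297). Here and throughout, group levels and ratios are given as the mean ± SD over the libraries of a group (n = 3) and log2 fold changes with their standard error (SE). Transcript from the targeted gene was therefore still present in every library labelled KO.

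As background, each collagen IV molecule is a triple helix of 3 chains, and the chains combine in a restricted way. The α1 and α2 chains form a network found in nearly all basement membranes, and in the glomerulus it is made mainly by endothelial and mesangial cells. The α3, α4 and α5 chains form the network of the mature glomerular basement membrane, which podocytes make and whose loss causes Alport syndrome. The α5 and α6 chains form another network, known from Bowman's capsule and smooth muscle. The genes lie in head-to-head pairs. In the NCBIM37 coordinates of the files, Col4a1 (8:11198423-11312826, minus strand) and Col4a2 (8:11312805-11449287, plus strand) overlapped at their starts, Col4a4 (1:82447298-82583424, minus strand) and Col4a3 (1:82583496-82718634, plus strand) lay 71 bases apart, and Col4a6 (X:137599946-137908619, minus strand) and Col4a5 (X:137909928-138123778, plus strand) lay 1308 bases apart. Col4a3bp (13:97312690-97410122, plus strand) lies elsewhere and encodes no collagen chain.

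Markers of podocytes were abundant in every library, with summed levels of the 12 listed genes at 22492 to 25419 CPM in WT and 20086 to 22017 CPM in KO. The 12 glomerular endothelial markers summed to 11160 to 11876 CPM in WT and 9200 to 9764 CPM in KO, and the 12 mesangial and smooth muscle markers to 4193 to 4570 CPM in WT and 4097 to 4790 CPM in KO. Markers of the other glomerular cell types were thus read beside those of podocytes. Tubule markers were present too and had positive log2 fold changes throughout. The 12 proximal tubule markers summed to 637 to 1190 CPM in WT and 1032 to 1542 CPM in KO, with 12 of 12 positive, a median of 0.53 and 2 called. The 12 markers of later nephron segments (loop, distal tubule, collecting duct) summed to 184 to 342 CPM in WT and to 543, 1455 and 273 CPM in KO1, KO2 and KO3, with 12 of 12 positive, a median of 1.64 and 1 called. KO2 thus stood apart from the other libraries in that list. Over all 19742 genes tested, 3.37% were called and 49.1% had a negative log2 fold change. Without KO2, the log2 fold changes reported next were -0.23 for Col4a1, -0.18 for Col4a2, 0.11 for Col4a3, 0.02 for Col4a4, -0.40 for Col4a5, 0.25 for Col4a6 and -0.19 for Col4a3bp, each with the sign it had in the fit of all 6 libraries. No marker in these lists was at 0 in all libraries. The 12 macrophage markers summed to 118 to 157 CPM in WT and 225 to 257 CPM in KO. In such bulk libraries, fewer cells of a type and less RNA per cell cannot be told apart.

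Of the 7 members, Col4a5 alone passed the test between KO and WT, and it fell. It was 1 of 7 called, beside 3.37% of all genes tested (1.76% called lower and 1.62% called higher; edgeR quasi-likelihood test, adjusted p under 0.05). The median log2 fold change over the members was -0.10, beside 0.01 over all 19742 genes tested. Groups did not overlap for 1 of 7 members, Col4a5, beside 28.9% of all genes tested (14.8% with KO lower and 14.1% with KO higher).

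**Figure D1:**
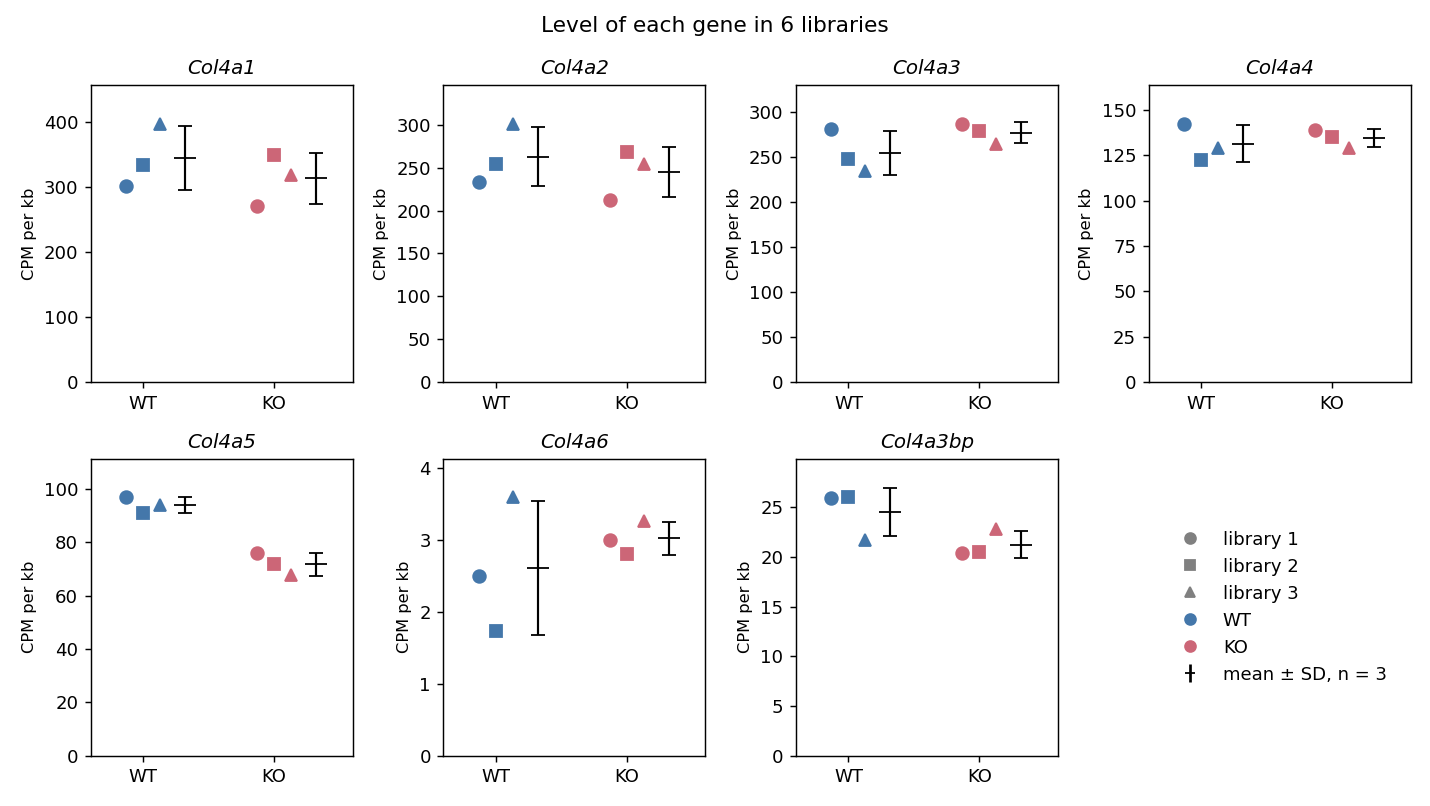
Level of each member in CPM per kb of summed exonic length (vertical axis, from 0) in the 3 WT and 3 KO libraries; points are libraries, and the bar and error bar are the group mean and SD. Col4a5 is the panel in which every KO library, at 67.6 to 76.0, lies below every WT library, at 91.1 to 96.8.

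Col4a1 and Col4a2, the chains of the widespread network, varied together between libraries and did not pass the test. Their RefSeq promoter windows (GRCm38.p6), which run from 250 bases before to 50 bases after each start, share 78 bases because the genes diverge from the same place. The Col4a1 window is shown because both genes start inside it, with matches to the 3 motifs found there in capitals.
Col4a1 promoter, chr8:11312777-11313076, minus strand: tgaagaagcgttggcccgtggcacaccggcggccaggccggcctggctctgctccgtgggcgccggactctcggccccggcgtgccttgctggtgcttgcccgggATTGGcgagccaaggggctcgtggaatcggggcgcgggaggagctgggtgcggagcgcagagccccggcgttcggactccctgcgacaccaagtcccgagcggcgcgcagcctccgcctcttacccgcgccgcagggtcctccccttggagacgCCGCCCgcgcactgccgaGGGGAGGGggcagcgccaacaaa
The capitals mark, in order, a CCAAT box at -145, a GC box (GGGCGG) at +10 and a CTC box (CCCTCCCC), an element described in collagen IV promoters, at +28, each on the opposite strand and counted from the RefSeq start site. Among all 32851 mouse windows of the same length, 37.4% held CCAAT, 35.7% held GGGCGG and 10.8% held CCCTCCCC on either strand. Neither TATAAA (13.6% of windows) nor TAATTA (5.29% of windows) was found in any of the 6 member windows. The Col4a2 window held 3 GC boxes, 1 CCAAT box and 1 CTC box.

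Col4a1 stood at 301, 335 and 398 CPM per kb in WT1, WT2 and WT3, and at 272, 350 and 319 CPM per kb in KO1, KO2 and KO3. The groups overlapped, with WT3 the highest library and KO1 the lowest, and the log2 fold change was -0.14 ± 0.13 (edgeR adjusted p = 0.594). Col4a2 stood at 234, 254 and 301 CPM per kb in the WT libraries and at 213, 268 and 255 CPM per kb in the KO libraries, in the same order of libraries at both ends. Its log2 fold change was -0.10 ± 0.13 (edgeR adjusted p = 0.678), and without WT3 it was 0.01. The ratio of Col4a1 to Col4a2 stayed between 1.25 and 1.32 in all 6 libraries while the levels of each gene spread more widely. It averaged 1.31 ± 0.0168 in WT and 1.28 ± 0.0259 in KO (exact two-sided permutation p = 0.2).

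Col4a3 and Col4a4, 2 of the 3 chains of the podocyte network, did not pass the test. Col4a3, the chain that carries the Goodpasture antigen, stood at 281, 247 and 234 CPM per kb in WT1, WT2 and WT3 and at 287, 279 and 264 CPM per kb in KO1, KO2 and KO3. The groups overlapped through WT1, and the log2 fold change was 0.12 ± 0.08 (edgeR adjusted p = 0.441). Col4a4 stood at 142, 123 and 129 CPM per kb in WT and at 139, 135 and 129 CPM per kb in KO, with a log2 fold change of 0.03 ± 0.07 (edgeR adjusted p = 0.831). All KO libraries lay within the WT range. Its sign turned to -0.02 without WT2 and to -0.07 when the longest exonic part alone was counted.

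The ratio of Col4a3 to Col4a4 was 1.97, 2.02 and 1.81 in WT1, WT2 and WT3 and 2.06, 2.06 and 2.04 in KO1, KO2 and KO3. Every KO library was above every WT library, by a small margin over WT2, and p = 0.1 in the exact two-sided permutation test is the smallest that 3 libraries against 3 can give. With the median density over parts of at least 50 bases, the groups overlapped. The log2 difference was then 0.05 (exact two-sided permutation p = 0.4), beside 0.09 over all parts. The RefSeq table held windows for 6 of the 7 members, Col4a4 among them and Col4a3bp under its current symbol Cert1. The Col4a4 window is shown as the side of the Col4a3 and Col4a4 pair that the table holds.
Col4a4 promoter, chr1:82586800-82587099, minus strand: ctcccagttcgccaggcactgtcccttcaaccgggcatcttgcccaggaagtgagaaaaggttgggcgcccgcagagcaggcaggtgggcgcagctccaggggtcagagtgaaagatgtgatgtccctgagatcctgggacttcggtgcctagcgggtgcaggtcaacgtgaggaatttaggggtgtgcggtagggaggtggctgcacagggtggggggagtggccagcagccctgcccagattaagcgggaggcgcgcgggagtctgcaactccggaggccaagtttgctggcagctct
None of the 5 motifs searched was found in it on either strand, so no letter is in capitals, which says only that these letters are not in this window.

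Col4a5 encodes the X-linked chain that completes the podocyte network and is the chain most often mutated in Alport syndrome. It stood at 96.8, 91.1 and 93.9 CPM per kb in WT1, WT2 and WT3 and at 76.0, 71.7 and 67.6 CPM per kb in KO1, KO2 and KO3. Each group was tight and the groups did not overlap. Before division by length the level was 631 ± 19.0 CPM in WT and 482 ± 28.5 CPM in KO, from 105885 to 143696 counts per library. The log2 fold change was -0.39 ± 0.06, a fall of 23.6%, at an edgeR adjusted p of 0.0342. The call did not hold when any 1 library was left out. The edgeR adjusted p then was 0.108 for WT1 left out, 0.134 for WT2 and 0.0656 for WT3, and 0.0766 for KO1 left out, 0.0881 for KO2 and 0.0579 for KO3. The size moved little, from -0.44 to -0.35 on the log2 scale over those 6 fits. The longest exonic part alone gave -0.38 at an adjusted p of 0.0859, DESeq2 gave -0.39 at an adjusted p of 1.0e-05 with 14.0% of its genes called, and limma-voom gave -0.39 at an adjusted p of 0.0321 with 2.49% called.

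The podocyte marker sums given above were also lower in KO with no overlap, as were the endothelial sums. In the endothelial list the largest fall in CPM was that of Plat, from 3508 ± 253 to 2199 ± 266 CPM. Plat alone was called there (log2 -0.67 ± 0.10, edgeR adjusted p = 0.0342), and passed in 0 of 6 fits that left out a library. All 12 endothelial markers had a negative log2 fold change, with a median of only -0.10. The median log2 fold change over the 12 podocyte markers was -0.23, with Nphs1, the slit diaphragm protein nephrin, called lower at -0.53 ± 0.08 (edgeR adjusted p = 0.0350) and Synpo at -0.46 ± 0.10 (edgeR adjusted p = 0.0712). Nphs1 passed in 0 of 6 fits that left out a library. Of the 12 podocyte markers, 10 had a negative and 2 a positive log2 fold change. Tcf21 was higher in every KO library than in any WT library, at 0.37 ± 0.11, without passing the test. Ptpro stood at 0.02 and Podxl, the largest term of the podocyte sum, at -0.10, and the groups overlapped for both. The part of these levels in the Col4a5 value was not tested. Col4a3 and Col4a4, in the same libraries, had log2 fold changes of 0.12 and 0.03.

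The Col4a5 window is shown because its gene is the member that fell.
Col4a5 promoter, chrX:141475169-141475468, plus strand: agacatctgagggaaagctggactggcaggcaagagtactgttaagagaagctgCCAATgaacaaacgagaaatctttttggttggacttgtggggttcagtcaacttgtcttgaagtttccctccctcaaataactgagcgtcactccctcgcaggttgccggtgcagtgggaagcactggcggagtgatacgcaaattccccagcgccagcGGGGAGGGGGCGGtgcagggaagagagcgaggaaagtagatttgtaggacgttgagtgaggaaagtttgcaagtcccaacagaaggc
The capitals mark a CCAAT box at -196 and, run together and overlapping by 1 base, a CTC box on the opposite strand at -37 and a GC box at -30. The windows of Col4a1, Col4a2, Col4a5 and Col4a3bp each held a GC box and a CTC box, and that of Col4a6 held a GC box at -21. The GC box and CTC box of Col4a1 lie in the bases its window shares with that of Col4a2. They are the same sites as the GC box at +8 and the CTC box at -13 of Col4a2. A match is a description of the sequence and not of a bound site.

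Set against its partner chains, Col4a5 was lower in KO as well. Its level was 0.457, 0.493 and 0.517 of the mean of Col4a3 and Col4a4 in WT1, WT2 and WT3, and 0.358, 0.347 and 0.344 of it in KO1, KO2 and KO3. The lowest WT ratio was well above the highest KO ratio. The means were 0.489 ± 0.0299 and 0.349 ± 0.00717, a log2 difference of -0.48, with an exact two-sided permutation p of 0.1 and 0.167 after Benjamini-Hochberg adjustment over the 5 ratios computed. An exact permutation test of 3 libraries against 3 cannot go below p = 0.1, so none of the ratios could pass. As a share of the summed level of the 6 chains, α5 was 8.64% ± 0.530 in WT and 6.90% ± 0.688 in KO, while α3 was 23.4% ± 3.18 and 26.5% ± 2.12, and α4 was 12.1% ± 1.23 and 12.9% ± 0.996.

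The ratio of the α1 and α2 network to the α3, α4 and α5 network showed no difference beyond the spread. It was 1.03, 1.28 and 1.53 in WT1, WT2 and WT3 and 0.966, 1.27 and 1.25 in KO1, KO2 and KO3. The ratio ranged more widely among the WT libraries than the group means differed. The means were 1.28 ± 0.250 in WT and 1.16 ± 0.170 in KO, a log2 difference of -0.13 with an exact two-sided permutation p of 0.5. Leaving out each library in turn moved the log2 difference between -0.28, without WT1, and 0.01, without WT3.

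**Figure D2:**
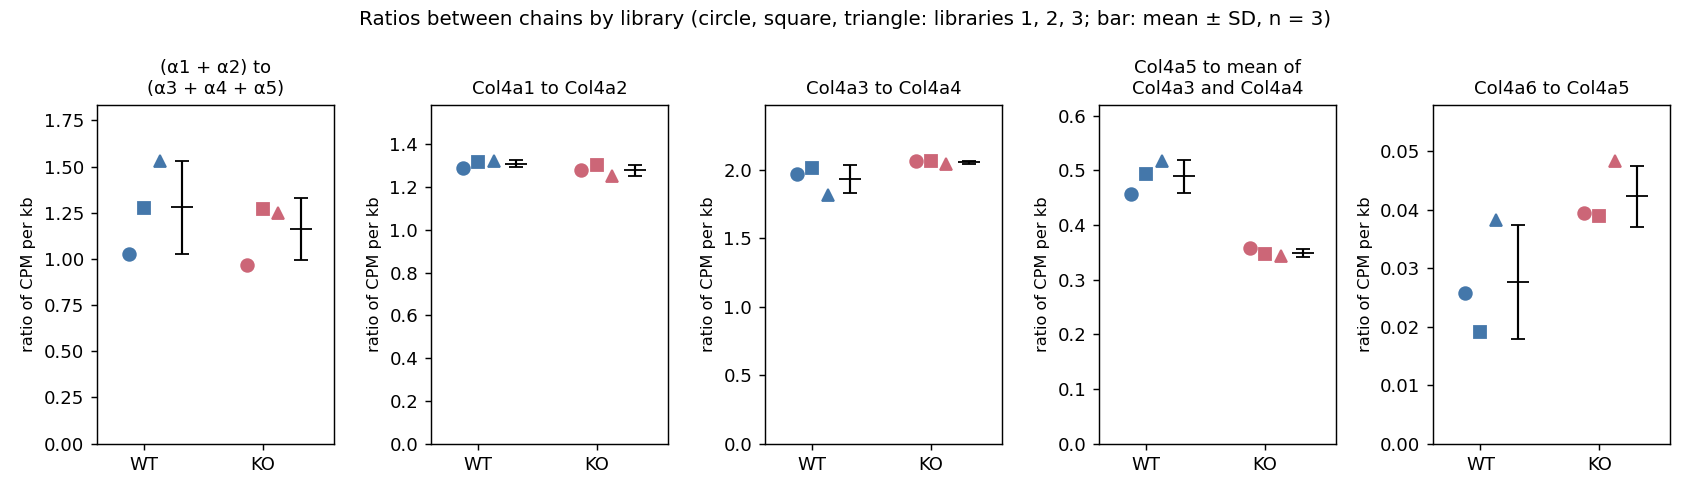
Ratios of chain levels (CPM per kb, vertical axes from 0) in the 3 WT and 3 KO libraries; points are libraries, and the bar and error bar are the group mean and SD. Col4a5 against the mean of Col4a3 and Col4a4 separates the groups, at 0.457 to 0.517 in WT and 0.344 to 0.358 in KO, while the ratio of the 2 networks overlaps.

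Col4a6, the partner of α5 in that other network, was the lowest of the members. It stood at 2.50, 1.74 and 3.59 CPM per kb in WT1, WT2 and WT3 and at 3.01, 2.80 and 3.26 CPM per kb in KO1, KO2 and KO3. The KO libraries lay within the wide WT range, and the log2 fold change was 0.21 ± 0.25 (edgeR adjusted p = 0.658), or -0.01 without WT2. The ratio of Col4a6 to Col4a5 was 0.0258, 0.0190 and 0.0383 in WT and 0.0395, 0.0390 and 0.0483 in KO. Every KO library was above every WT library, though KO2 exceeded WT3 only slightly (exact two-sided permutation p = 0.1, 0.167 after adjustment over 5 ratios). With the median density over parts or with the longest exonic part, the groups overlapped (exact two-sided permutation p = 0.2 for each). The denominator of this ratio is Col4a5, the member that fell. The 9 parietal epithelial markers, genes of the cells that line Bowman's capsule, summed to 93.6 to 121 CPM in WT and 132 to 185 CPM in KO. Of these 9, 8 had a positive and 1 a negative log2 fold change, with a median of 0.70. Pax8 alone was called, with a log2 fold change of 0.69 ± 0.11 (edgeR adjusted p = 0.0376), and it passed in 1 of 6 fits that left out a library. Tubule marker sums, given above, were highest in KO2, as was the parietal sum, while Col4a6 was highest in WT3 and, among the KO libraries, in KO3. The part of tubule cells in the parietal sum was not tested, nor was that of either cell type in the Col4a6 level.

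Col4a3bp encodes CERT, which carries ceramide from the endoplasmic reticulum to the Golgi; a longer splice form, GPBP, was described as a kinase that binds the α3 chain. It stood at 25.9, 26.0 and 21.7 CPM per kb in WT1, WT2 and WT3 and at 20.4, 20.5 and 22.8 CPM per kb in KO1, KO2 and KO3. The groups overlapped because KO3 exceeded WT3. The log2 fold change was -0.21 ± 0.09, with an unadjusted edgeR p of 0.0495 and an adjusted p of 0.220.

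Per kb and over all 6 libraries, the mean levels fell in the order Col4a1 (329), Col4a3 (265), Col4a2 (254), Col4a4 (133), Col4a5 (82.9), Col4a3bp (22.9) and Col4a6 (2.82 CPM per kb). The ranges of the first 3 overlapped between neighbours over the 6 libraries. Within a library, Col4a1 was above Col4a2 in all 6, by the ratio of 1.25 to 1.32 given above, and above Col4a3 in 5 of 6, while Col4a3 was above Col4a2 in 4 of 6. From Col4a2 downwards, neighbours in the order had ranges that did not overlap over the 6 libraries. Lengths in this measure include parts that were hardly read, such as a Col4a3 part of 1358 bases with 54 to 98 counts. The median density over parts of at least 50 bases gave Col4a3 317 ± 25.0 and Col4a1 407 ± 59.6 CPM per kb in WT, with Col4a5 at 99.1 ± 3.27. The longest exonic part of each gene gave another order in WT, with Col4a3 at 235 ± 30.1, Col4a2 at 181 ± 25.8 and Col4a1 at 172 ± 23.6. By that measure Col4a2 was above Col4a1 in every library, so the order of the first 3 depended on the measure.

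The lower Col4a5 level was spread over the whole transcript. Of the exonic parts of at least 50 bases whose WT density reached at least 10% of the gene's median, all 45 of Col4a5 were lower in KO with no overlap between groups, with log2 differences from -0.46 to -0.31. Among all tested parts of at least 50 bases, 14.9% had every KO library below every WT library. Parts of a gene share its level and its reads, so these are not 45 separate tests. All 43 such parts of Col4a1 and all 43 of Col4a2 were lower in KO, but none without overlap. All 47 of Col4a3 were higher, 4 of them without overlap, beside 9.89% of tested parts. Of the 43 of Col4a4, 40 were higher and 3 lower, of the 42 of Col4a6 39 were higher, 4 of them without overlap, and 3 lower, and all 18 of Col4a3bp were lower, 2 of them without overlap.

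**Figure D3:**
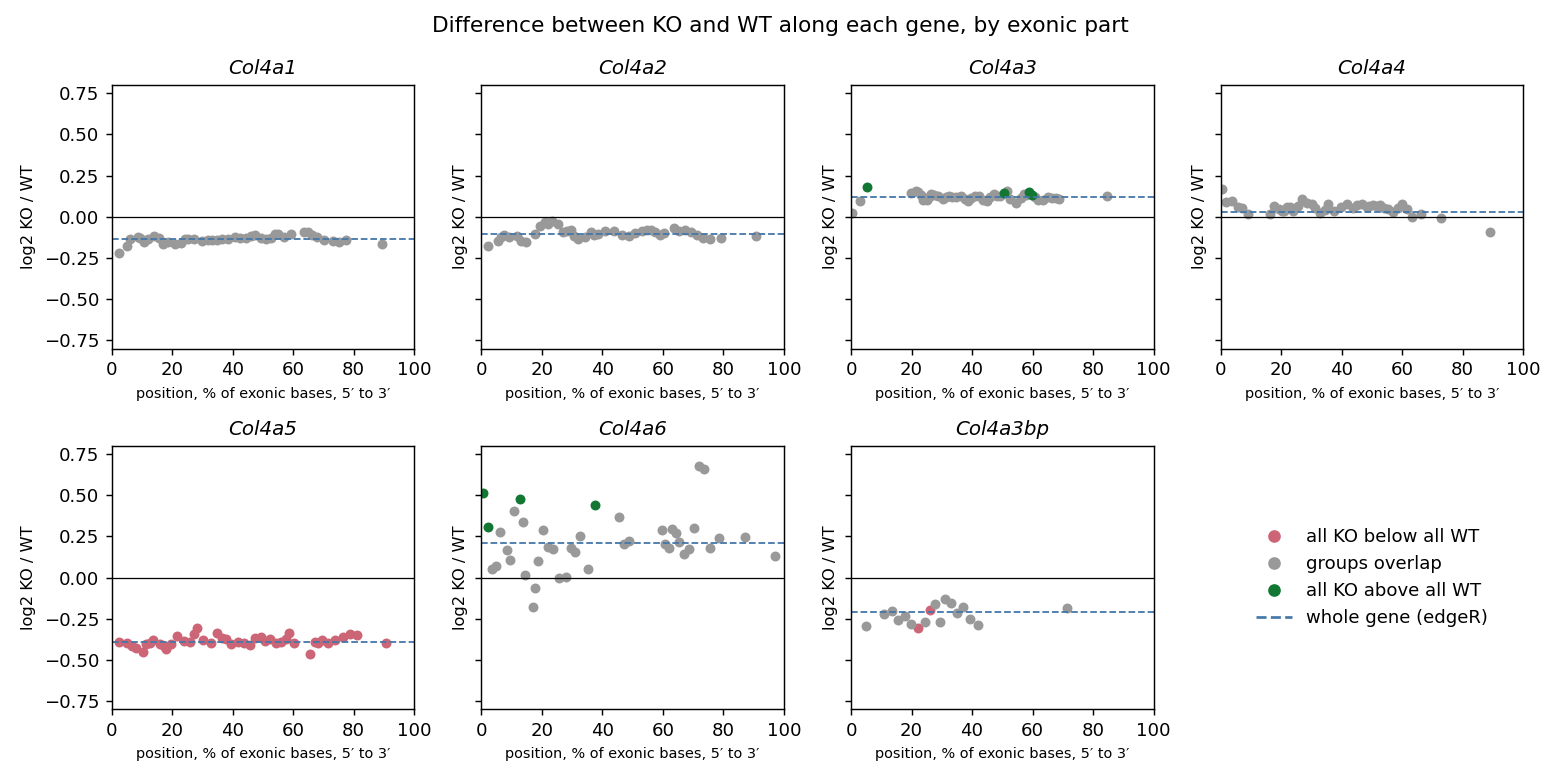
Log2 ratio of mean KO to mean WT level of each exonic part of at least 50 bases and at least 10% of the gene's median density (vertical axis), against its place in the summed exonic bases from 5′ to 3′ in percent (horizontal axis); the dashed line is the gene's own log2 fold change. The Col4a5 parts lie between -0.46 and -0.31 from end to end.

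The share of counts in the 3′ 50% of the exonic bases bore on RNA quality, since broken RNA selected by its poly(A) tail is read more towards the 3′ end. For Col4a5 the share was 41.5% ± 0.471 in WT and 41.6% ± 0.158 in KO (exact two-sided permutation p = 0.9). Col4a4 was the member whose groups did not overlap, at 41.4% ± 0.291 in WT and 40.3% ± 0.332 in KO (exact two-sided permutation p = 0.1, 0.7 after adjustment over the 7 members). The other 5 members overlapped.

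Exon usage, the level of a part relative to the rest of its gene, was tested because the study's title names alternative splicing. None of the 343 tested parts of the members passed (edgeR diffSpliceDGE, adjusted p under 0.05), beside 0.0983% of 236061 parts tested over all genes. One member part had an unadjusted p under 0.05, and limma's diffSplice called 0 of them, with a Simes adjusted p of 0.338 for Col4a5. None of the 7 genes passed by Simes' method either, beside 0.621% of 15145 genes. The part with the smallest p was a 201-base part of Col4a1 (8:11212401-11212601) that 1 of its 2 transcripts holds, with 42, 41 and 49 counts in WT and 26, 28 and 35 counts in KO. Those counts put it at 0.255% of the gene's median density, and its usage change was -0.71 on the log2 scale (unadjusted p = 0.0145, adjusted p = 1 by edgeR diffSpliceDGE). For Col4a6 the smallest p, 0.141 before adjustment, was that of a 147-base part (X:137607212-137607358) with a usage change of 0.46. For Col4a3 it was 0.214, for the hardly read part of 1358 bases, for Col4a3bp 0.446 and for Col4a2 0.545.

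The alternative exons that define known forms of these genes are shown next, each in capitals with 15 bases of the neighbouring exons in lower case. They come from the reference transcripts (GRCm38) that carry the same identifiers as in the files.
Col4a3bp exon 11, chr13:96616994-96617071, plus strand: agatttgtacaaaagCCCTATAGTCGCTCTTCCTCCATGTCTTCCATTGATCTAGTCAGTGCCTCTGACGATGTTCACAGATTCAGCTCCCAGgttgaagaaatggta
Col4a5 exons 43 and 44, chrX:141658532-141664684, plus strand, joined: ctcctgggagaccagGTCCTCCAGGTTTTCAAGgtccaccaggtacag
Col4a4 exon 43, chr1:82465457-82465465, minus strand: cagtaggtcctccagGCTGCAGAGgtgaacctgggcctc
The 78-base exon of Col4a3bp is in 1 of its 2 transcripts and makes the difference between GPBP and CERT. The 2 exons of Col4a5, of 9 bases each and in 4 of its 6 transcripts, fall in the collagenous domain, and such short exons are known from the form of the chain made in kidney. The 9-base exon of Col4a4 is in 2 of its 3 transcripts.

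Reads over the Col4a3bp exon stood at 24.0%, 27.5% and 31.7% of the per-base level of the neighbouring exons in WT1, WT2 and WT3 and at 23.8%, 24.8% and 27.0% in KO1, KO2 and KO3. The exon was read at less than its neighbours in all 6 libraries, and the groups overlapped. Counts over the exon were 222 to 315 per library.

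The first 9-base exon of Col4a5 (GTCCTCCAG) had 155, 22 and 32 counts in WT1, WT2 and WT3 and 197, 30 and 89 counts in KO1, KO2 and KO3. Per base that was 124%, 20.5% and 22.7% of the neighbouring exons in WT and 150%, 30.3% and 83.6% in KO. Values so far apart within each group leave the share of transcripts that hold this exon undetermined. The second (GTTTTCAAG) was steadier, with 63, 50 and 64 counts in WT and 71, 55 and 83 counts in KO. That was 50.3%, 46.6% and 45.4% of the neighbouring exons in WT and 54.2%, 55.5% and 78.0% in KO. Every KO library was above every WT library, but the usage test gave 0.34 on the log2 scale with an unadjusted p of 0.179 (adjusted p = 1, edgeR diffSpliceDGE). The 9-base exon of Col4a4 (GCTGCAGAG) had 82, 85 and 64 counts in WT and 178, 66 and 169 counts in KO, overlapping through KO2 (usage change 0.47, unadjusted p = 0.189, adjusted p = 1, edgeR diffSpliceDGE). A read enters every part it covers, so per-base counts of parts of unlike length are not on 1 scale. In Col4a1, parts 47 and 41, of 27 bases, stood at 216% and 289% of the gene's median density in WT. Its part 30, of 192 bases, stood at 71.4%. Percentages of the 9-base Col4a5 exons, set against neighbours of 186 and 134 bases, are thus not shares of transcripts. How reads were assigned to parts as short as 9 bases is not stated in the labels, and its part in these counts was not tested. Over the 1664 other parts of that length, the summed level was 1341 to 1407 CPM in WT and 1310 to 1339 CPM in KO.

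**Figure D4:**
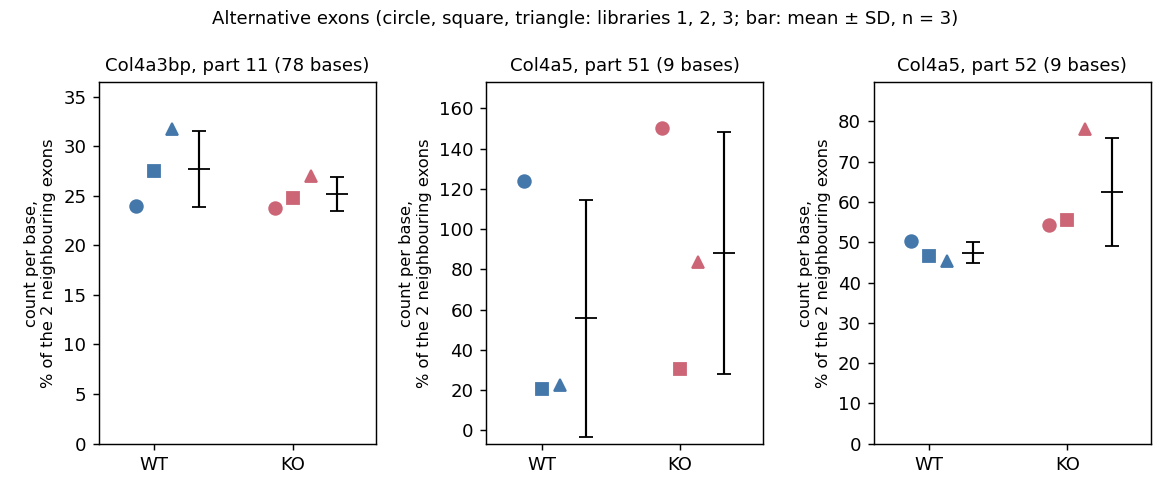
Count per base of alternative exonic parts of Col4a3bp (part 11, the 78-base exon) and Col4a5 (parts 51 and 52, the first and second 9-base exon) in percent of the mean of the 2 neighbouring exons (vertical axes), in the 3 WT and 3 KO libraries; points are libraries, and the bar and error bar are the group mean and SD, which reaches below 0 for the first 9-base exon of Col4a5. The Col4a3bp exon sits at 23.8% to 31.7% in all 6 libraries.

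Genes listed for making, secreting, linking, binding or cutting collagen IV mostly did not pass the test. Beside the counts of this and the following lists, 3.37% of all genes tested were called (1.76% lower and 1.62% higher). Of 21 tested genes of chain maturation and secretion, 2 rose and 1 fell. The median of the list was -0.02 on the log2 scale. P3h2, a prolyl 3-hydroxylase of collagen IV, fell to 435 ± 18.1 CPM from 597 ± 30.1 CPM (log2 -0.46 ± 0.06, edgeR adjusted p = 0.0257). Colgalt2, which adds galactose to hydroxylysine, rose by a log2 fold change of 1.02 ± 0.17 (edgeR adjusted p = 0.0373). Plod2, a lysyl hydroxylase, rose by 0.53 ± 0.10 (edgeR adjusted p = 0.0476). Each of the 3 passed in 1 of 6 fits that left out a library. None of 7 genes of crosslinking passed in edgeR, and none had an unadjusted p under 0.05. They include Loxl2, which crosslinks the 7S ends of the α1 and α2 network (0.34 ± 0.14, edgeR adjusted p = 0.226), and Pxdn, the peroxidasin that forms the sulfilimine bonds between molecules (-0.08 ± 0.05, edgeR adjusted p = 0.362). Loxl1, a lysyl oxidase, stood at 0.26 (edgeR adjusted p = 0.364). Over all alternatives, DESeq2 and limma-voom included, the smallest adjusted p of these 3 was 0.0674, for Loxl2.

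Of 9 listed receptors of collagens and other matrix proteins, 1 rose. Ddr1, a receptor tyrosine kinase for collagen, went from 117 ± 5.02 to 191 ± 25.6 CPM (log2 0.70 ± 0.10, edgeR adjusted p = 0.0297). Itga11 and Itga2, collagen-binding integrin chains, had log2 fold changes of 0.61 and 0.31 that did not pass (edgeR adjusted p = 0.113 and 0.335). Of 21 basement membrane partners, 1 rose, Npnt, the nephronectin that podocytes lay down in the glomerular basement membrane, from 1099 ± 89.3 to 1638 ± 109 CPM (log2 0.58 ± 0.08, edgeR adjusted p = 0.0297). The median of that list was -0.15. Agrn, a heparan sulfate proteoglycan, and Lamb2, the laminin β2 chain of the mature glomerular basement membrane, were lower without passing (log2 -0.34 and -0.23, edgeR adjusted p = 0.0647 and 0.0835). Ddr1 passed in 1 of 6 fits that left out a library, and Npnt in 0 of 6.

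Of 11 tested genes listed for collagen IV cleavage, which are matrix metalloproteases and their inhibitors, 3 rose and 0 fell. The median of the list was 0.31 on the log2 scale. Timp1, an inhibitor of matrix metalloproteases, rose to 2.45 ± 0.111 CPM from 0.717 ± 0.0299 CPM (log2 1.77 ± 0.13, edgeR adjusted p = 0.00597) and passed in all 6 fits that left out a library. Timp2, another inhibitor, rose by 0.31 ± 0.06 (edgeR adjusted p = 0.0450), and Mmp11, counted together with the overlapping Gm867, by 0.59 ± 0.08 (edgeR adjusted p = 0.0257). Timp2 passed in 0 and Mmp11 in 1 of 6 such fits. Sums of macrophage markers, given above, were also higher in KO, as was the sum of the 8 fibroblast markers (729 to 827 CPM in WT and 2265 to 2634 CPM in KO). Of those 8, 5 had a positive and 3 a negative log2 fold change, and the test called 1 higher and 1 lower. The one called lower was Postn, the matrix protein periostin, at -1.20 ± 0.15 (edgeR adjusted p = 0.0226, passing in 2 of 6 fits that left out a library). The one called higher, Col1a2, a chain of collagen I, made up most of the sum in every library, at 562 ± 89.0 CPM in WT and 2212 ± 184 CPM in KO, while Col1a1, its partner chain, was at 3.39 to 7.48 CPM in all libraries. The part of those cells in the inhibitor levels was not tested.

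Around Col4a3bp, 3 of 16 genes of ceramide and sphingomyelin handling fell and 0 rose. The median of the list was -0.08 on the log2 scale. Sgms1, the Golgi sphingomyelin synthase that uses the ceramide CERT delivers, fell to 117 ± 5.81 CPM from 182 ± 22.8 CPM (log2 -0.64 ± 0.10, edgeR adjusted p = 0.0313). Cers6, a ceramide synthase, had a log2 fold change of -0.77 ± 0.14 (edgeR adjusted p = 0.0437), and Sptlc2, a subunit of serine palmitoyltransferase, one of -0.25 ± 0.04 (edgeR adjusted p = 0.0456). Sgms1 and Cers6 each passed in 1 of 6 fits that left out a library and Sptlc2 in 0 of 6.

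**Figure D5:**
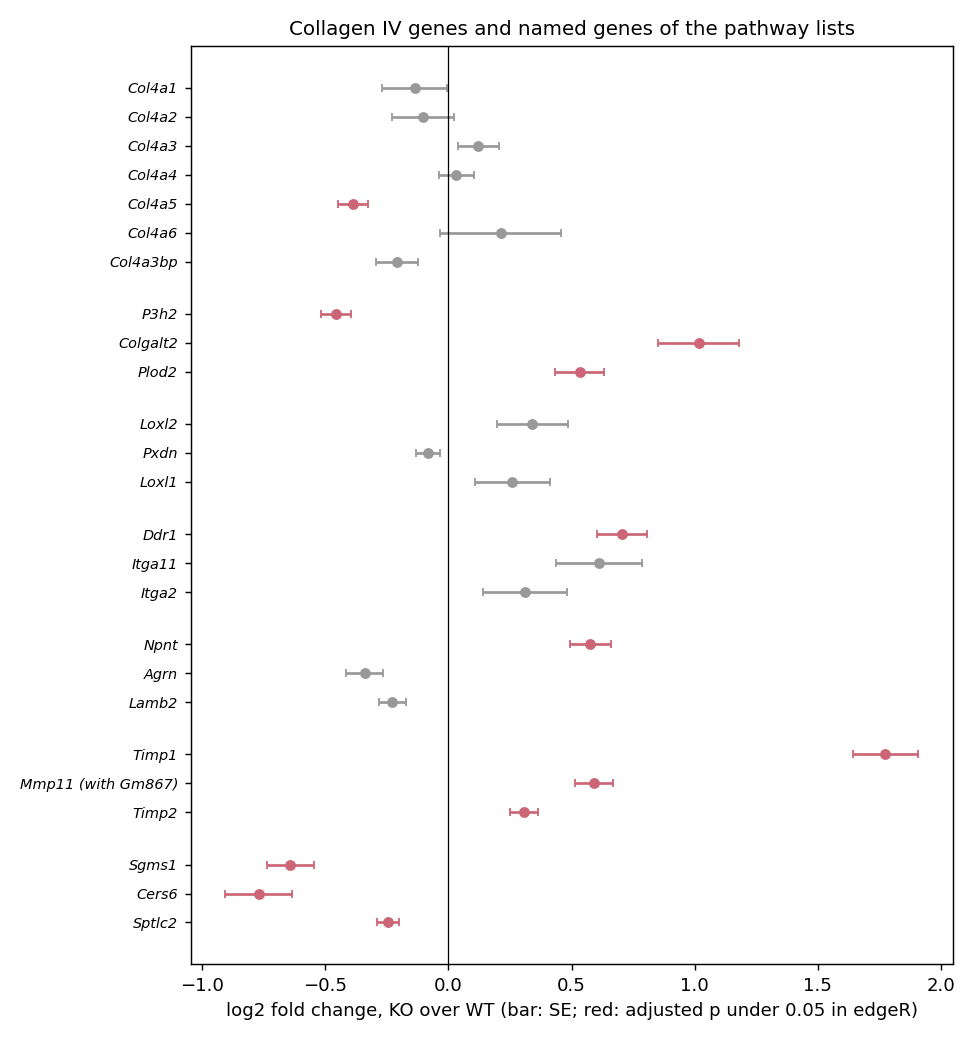
Log2 fold change of KO over WT (horizontal axis) of the 7 members at the top and, below them, of the named genes of maturation, crosslinking, receptors, partners, cleavage and ceramide handling; bars are standard errors and red marks genes past the edgeR test. Col4a5, at -0.39, is the member in red, the other members lie between -0.21 and 0.21, and Timp1 lies farthest out at 1.77.

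Among 10401 genes ranked, those whose log2 CPM followed the mean of Col4a3, Col4a4 and Col4a5 most closely over the 6 libraries were Csnk1g1 (Pearson r = 0.995), Tram1 (0.984), the joined genes Zbtb6 and Zbtb26 (0.981), Nucks1 (0.968) and the joined genes Phospho1 and Zfp652 (0.967). For the mean of Col4a1 and Col4a2 they were Gm15419 (0.993), Slc27a4 (0.991), Sppl2b (0.989), a joined gene holding Myo1h (0.980) and Kctd10 (0.976). Col4a3 and Col4a4 correlated at 0.80, but Col4a5 correlated at -0.42 with Col4a3 and at -0.02 with Col4a4. The mean of those 3 chains is thus not a profile that all of them share. With 6 points and so many genes searched, these values describe likeness to a mean profile over these libraries and no more.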

How the data were processed

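The authors deposited 1 table per library. Per the file headers and values, each gives for 368092 exonic parts (Ensembl 67, mouse build NCBIM37) the raw read count, the covered bases, the length and the covered fraction; covered fractions were used as percentages to describe parts. TopHat 1.4.1 is named in the submitters' processing notes, with GRCh37, a human build that goes against the mouse build of the files. No source used here gives the counting tool or whether it used strand, so reads of overlapping genes cannot be told apart; 3 of the 356 member parts overlap another gene.

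Part counts were summed per gene, so a read over several parts enters several times. Symbols were matched by identifier (31300 of 35981 single identifiers), with 908 identifiers joining overlapping genes. Genes were tested with edgeR 4.0.16 (R 4.3.3; TMM, filterByExpr, quasi-likelihood, all 6 libraries, Benjamini-Hochberg over all genes), and exon usage with diffSpliceDGE. CPM were divided by summed exonic kb for levels and ratios. Ratios and shares had exact two-sided permutation tests (SciPy 1.17.1). Alternatives were RLE, other filters, DESeq2 1.42.0, limma 3.58.1, a replicate block, the longest part, parts overlapping no other gene, and leaving out each library. The scripts were tested on simulated counts.

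Named genes were all members and, from each list, those past the test, otherwise up to 3 with the smallest p. Also named were the part with the smallest usage p of each member and the 5 genes most like the mean profile of each network. Those 5 came from genes averaging a log2 CPM of 3 or more. Marker genes were given by sums and by those the results touch. The alternative exons of Col4a3bp and Col4a5, and the genes Col1a1, Tcf21, Ptpro, Podxl and Timp3, were chosen after their values were seen. Members and lists were chosen with earlier results of these data known. Sequences are from RefSeq (GRCm38.p6) promoter windows and GRCm38 reference transcripts.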

Additional observations from a re-analysis of the deposited data

How the results depend on the processing

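The number of genes called moved most: from 666 to 2541 with DESeq2, 424 with the longest exonic part, 82 with the replicate block and 31 to 254 when 1 library was left out. The number of members called went from 1 to 0 with the longest exonic part, with the replicate block and without any 1 library (0 to 0 over the 6 fits). Col4a5 kept its direction in all 14 alternatives and passed in 6, with edgeR adjusted p = 0.0825 under the replicate block. Whether the numbers pair the libraries could not be decided from 3 libraries per group. Same-numbered deviations correlated at 0.107, -0.0601 and 0.158, and those of unlike number at -0.203 to 0.107. WT3 with KO3 was the highest of all pairs, but not every library correlated best with its own number. None of the others was called, but signs turned for Col4a2 (log2 0.0069 without WT replicate 3; -0.18 to 0.0069 over the fits with 1 library left out), Col4a4 (-0.074 with the longest part, -0.017 without WT replicate 2; -0.017 to 0.093) and Col4a6 (-0.012 without WT replicate 2; -0.012 to 0.51). The log2 difference in the Col4a3 to Col4a4 ratio went from 0.09 to 0.22 with the longest part and to 0.05 with the median density. The cause was not tested. The log2 difference in the network ratio ran from -0.28 to 0.0076 over 11 alternatives, and its groups no longer overlapped without WT replicate 1 (-0.28). With 1 library left out an exact permutation test cannot go below p = 0.2, and with 3 pairs an exact sign-flip permutation cannot go below p = 0.25, so those p-values say nothing of stability. No member part was called for exon usage under any of 9 alternatives. Depth limits mainly Col4a6 (2501 to 6549 counts per library) and the 9-base exons.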
